A study of Mus musculus with 6 samples.

Results

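The genes described are 9 components of phosphoinositide 3-kinase (PI3K) signalling: the catalytic subunit genes Pik3ca, Pik3cd and Pik3cg, the regulatory subunit genes Pik3r1 and Pik3r5, the adaptor gene Pik3ap1, the phosphatase gene Inpp5d, and the kinase genes Akt1 and Akt2. They were chosen by name, and each was found once in every library table among 23356 distinct gene symbols. All 9 were among the 10096 genes tested, those averaging at least 1 FPKM across all 6 libraries. FPKM, fragments scaled for transcript length and library total, is the unit of every level given here. The series compares germinal centre B cells made in culture from wild-type C57BL/6J mice, 3 libraries treated with CHIR99021 and 3 with the solvent DMSO. Naive follicular B cells were grown for 4 days with IL-4 (1 ng/ml) on feeder cells carrying CD40L. For the next 36 h both groups had IL-21 (10 ng/ml) and CD40L feeders, one with CHIR99021 at 3 uM and the other with DMSO, beside which the labels print the same figure. Per the labels, RNA came from purified cells. CHIR99021 blocks the kinase activity of both GSK3 paralogues, GSK3A and GSK3B. The cells are a culture model, in which T cell help is replaced by CD40L and added cytokines, and the labels do not give the animals behind each library.

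PI3K enzymes phosphorylate a membrane lipid to make PIP3, which recruits AKT kinases, the tyrosine kinase BTK and guanine exchange factors to the plasma membrane. In B cells the enzyme is engaged through the adaptor BCAP downstream of the antigen receptor, and it is limited by phosphatases such as SHIP1. GSK3 is itself a classical substrate of AKT, which inhibits it by phosphorylation, so a GSK3 inhibitor acts downstream of these components.

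With CHIR99021, 5 of the 9 genes fell and 0 rose in limma's test at an adjusted p under 0.05. In the same test 13.3% of all tested genes were called lower and 8.13% higher, 21.4% in all. With the replicate number as a block 7 of the 9 fell, where 24.4% of all tested genes were called lower and 42.8% in either direction. The genes that fell were Pik3ap1 (2.13-fold), Pik3cg (1.93-fold), Akt2 (1.60-fold), Pik3cd (1.39-fold) and Inpp5d (1.36-fold), as ratios of mean FPKM. Pik3ca and Pik3r1 did not pass the test, although their groups did not overlap, and Akt1 and Pik3r5 had overlapping groups. The median log2 change of the 9 genes was -0.43, against -0.04 for all tested genes. For 7 of the 9 genes every CHIR99021 library lay below every DMSO library, a pattern seen for 23.1% of tested genes, while 40.1% had groups that did not overlap in either direction.

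The sequence just upstream of the transcription start is shown for Akt2, Pik3ap1 and Inpp5d, which fell, and for Akt1, which did not pass the test, so that the AKT pair can be compared and the matches found in genes that fell can be seen. Each is the 250 bases before a RefSeq start on GRCm38.p6, given 5′ to 3′ on the gene's own strand. Capitals mark matches, on either strand, to 5 short motifs: CTTTGAT for TCF/LEF factors, GAGGAAG for PU.1 and SPI-B, CCGGAAG for ETS factors, TGTTTAC for FOXO factors and CACGTG for E-box factors. The intervals are chr7:27591302-27591551 (plus strand) for Akt2, chr12:112674277-112674526 (minus strand) for Akt1, chr19:41385103-41385352 (minus strand) for Pik3ap1 and chr1:87620062-87620311 (plus strand) for Inpp5d.
Akt2: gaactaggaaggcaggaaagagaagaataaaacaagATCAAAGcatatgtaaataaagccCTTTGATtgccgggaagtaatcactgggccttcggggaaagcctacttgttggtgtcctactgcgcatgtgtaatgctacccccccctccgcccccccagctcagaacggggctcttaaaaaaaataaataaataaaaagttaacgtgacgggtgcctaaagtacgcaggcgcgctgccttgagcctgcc
Akt1: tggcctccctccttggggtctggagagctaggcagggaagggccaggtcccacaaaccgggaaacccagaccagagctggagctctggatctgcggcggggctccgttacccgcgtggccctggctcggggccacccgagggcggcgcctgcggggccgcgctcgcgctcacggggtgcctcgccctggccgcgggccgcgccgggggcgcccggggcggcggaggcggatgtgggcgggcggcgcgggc
Pik3ap1: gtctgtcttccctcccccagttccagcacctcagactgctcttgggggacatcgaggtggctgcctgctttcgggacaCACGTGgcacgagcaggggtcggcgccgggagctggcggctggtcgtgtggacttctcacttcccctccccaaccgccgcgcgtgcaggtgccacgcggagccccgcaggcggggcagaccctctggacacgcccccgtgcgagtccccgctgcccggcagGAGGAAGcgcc
Inpp5d: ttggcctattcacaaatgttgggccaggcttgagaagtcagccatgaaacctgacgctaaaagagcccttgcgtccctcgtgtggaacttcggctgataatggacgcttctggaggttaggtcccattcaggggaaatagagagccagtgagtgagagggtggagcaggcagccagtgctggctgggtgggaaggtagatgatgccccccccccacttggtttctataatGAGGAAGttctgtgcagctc
The Akt2 sequence held the TCF/LEF motif CTTTGAT at position -190 and its reverse complement ATCAAAG at position -214, counted back from the start. That motif was present in 3.21% of 32851 RefSeq promoters over the same 250 bases. The Akt1 sequence held none of the 5 motifs and was richer in G and C (78.4% against 48.8% for Akt2, with a median of 52.4% over all promoters). The PU.1 and SPI-B motif GAGGAAG lay at position -11 in Pik3ap1 and at -20 in Inpp5d, and was present in 10.6% of all promoters. Pik3ap1 also held CACGTG, which was present in 6.02% of promoters. The choice of sequences shown does not stand for all 9 genes. Pik3cd and Pik3cg, which also fell, held none of the 5 motifs, nor did Pik3r1 and Pik3r5, while Pik3ca, which did not pass the test, held CCGGAAG on the other strand at position -47 (present in 6.91% of promoters). These are matches of letters, and no measurement of binding is among the data. RefSeq lists 4 starts for Akt2 and 2 for Akt1, and the start nearest to the deposited gene's 5′ end was used. For Pik3cd that start lay 2921 bases inside the deposited gene, and for Pik3ca 39086 bases upstream of it. For these genes the bases just before the deposited 5′ end were therefore not searched.

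Among the catalytic subunits, Pik3cd, which encodes the delta subunit that predominates in lymphocytes, had by far the highest level. Its DMSO libraries had 46.1, 60.2 and 54.3 FPKM and its CHIR99021 libraries 35.2, 43.0 and 37.2. The groups did not overlap, and replicate 2 was the highest and replicate 1 the lowest in both. Pik3cd (chromosome 4, 149649168 to 149701629 on mm10) had a log2 change of -0.46 ± 0.12 (SE), limma adjusted p = 0.0321. With upper-quartile scaling between libraries the adjusted p was 0.0508, and the call ended in 8 of 13 alternative settings, including without DMSO replicate 2 (0.0717) or 3 (0.0938) and without CHIR99021 replicate 1 (0.0899) or 3 (0.115). With the replicate block it was 0.00148.

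Pik3cg, the gamma subunit, which is activated through G-protein-coupled receptors, was the lowest of the 9 genes in both groups. It had 4.29, 4.56 and 5.37 FPKM in DMSO and 2.33, 2.67 and 2.39 in CHIR99021. Every CHIR99021 library was at or below 2.67 FPKM and every DMSO library at or above 4.29. Pik3cg (chromosome 12, 32173397 to 32208649) had a log2 change of -0.73 ± 0.14 (SE, limma adjusted p = 0.00887). Because that scale adds 1 FPKM before the logarithm, it understates the change of a gene at this level.

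Pik3ca, the broadly expressed alpha subunit, had 6.00, 7.83 and 7.66 FPKM in DMSO and 4.48, 5.50 and 5.23 in CHIR99021. The groups did not overlap, with 5.50 FPKM as the highest CHIR99021 library and 6.00 as the lowest DMSO library. Its log2 change of -0.42 ± 0.14 (SE, 95% interval -0.75 to -0.10) did not pass limma's test over all genes (adjusted p = 0.0683), but did with the replicate block (0.0082). The deposited Pik3ca span (chromosome 3, 32436151 to 32468486) begins 39086 bases downstream of the RefSeq start, so the upstream part of the gene in RefSeq lies outside the model that was counted. The beta subunit gene Pik3cb, which is no member of the group, lay below the limit on level, at 0.442 to 0.795 FPKM in 2 of the DMSO libraries and 0.255 in the other.

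**Figure D1:**
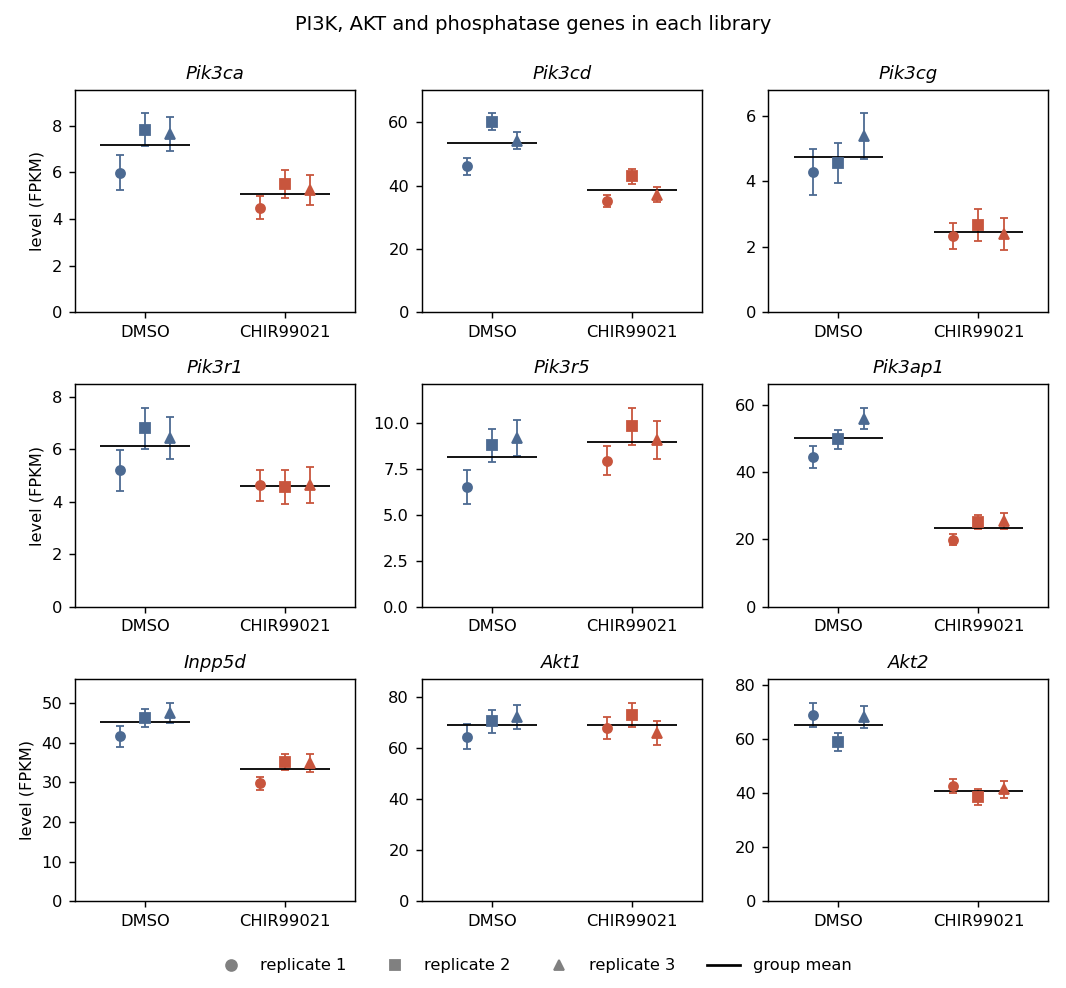
Level of each of the 9 genes (FPKM, linear axes from 0) in the 3 DMSO and 3 CHIR99021 libraries; marker shapes give the replicate number, vertical bars the deposited Cufflinks confidence limits of that library, and horizontal lines the group means. The groups are apart for 7 genes, and overlap for Akt1 and Pik3r5.

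Pik3r1 encodes a regulatory subunit that stabilises the alpha and delta catalytic subunits and brings them to phosphotyrosine sites. It had 5.20, 6.80 and 6.43 FPKM in DMSO and 4.62, 4.57 and 4.64 in CHIR99021. The CHIR99021 libraries had an SD of 0.0357 FPKM and lay below all DMSO libraries, of which DMSO replicate 1 came closest to them. Pik3r1 (chromosome 13, 101680762 to 101768217) did not pass the test (log2 change -0.34 ± 0.13 SE, limma adjusted p = 0.101), and passed with the replicate block (0.0360). The regulatory subunit gene Pik3r2, which is no member of the group, had higher means, 12.0 FPKM in DMSO and 9.89 in CHIR99021 (limma adjusted p = 0.140).

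Pik3r5, which encodes a regulatory partner of the gamma subunit, had 6.50, 8.76 and 9.18 FPKM in DMSO and 7.93, 9.80 and 9.07 in CHIR99021. The groups overlapped, with DMSO replicate 1 as the lowest of the 6 libraries. The log2 change of Pik3r5 (chromosome 11, 68432125 to 68497846) was 0.13 ± 0.15 (SE), with a 95% interval of -0.22 to 0.47 and a limma adjusted p of 0.598. That interval excludes a fall as large as that of Pik3cg, at -0.73 on the same scale. Without DMSO replicate 1 the change was -0.01.

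Pik3ap1 encodes BCAP, a B cell adaptor that is phosphorylated after antigen receptor engagement and binds the regulatory subunit of PI3K. It changed most of the 9 genes. Its DMSO libraries had 44.4, 49.7 and 55.8 FPKM and its CHIR99021 libraries 19.9, 25.1 and 25.5. The lowest DMSO library was well above the highest CHIR99021 library, and the deposited confidence limits did not overlap either. Pik3ap1 (chromosome 19, 41274218 to 41385070) had 50.0 ± 5.72 FPKM in DMSO and 23.5 ± 3.10 in CHIR99021 (SD, n = 3), with a log2 change of -1.06 ± 0.13 (SE, limma adjusted p = 0.00156). Over 13 alternative settings the change ran from -1.14 to -0.95 and each kept an adjusted p of 0.00904 or less.

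Inpp5d encodes SHIP1, the lipid phosphatase that removes the phosphate at the 5 position of PIP3 and is recruited by inhibitory receptors of B cells. It had 41.6, 46.3 and 47.5 FPKM in DMSO and 29.8, 35.1 and 34.8 in CHIR99021. Replicate 1 was the lowest library of each group, and the groups did not overlap. Inpp5d (chromosome 1, 87620312 to 87720508) fell by 26.3% in mean FPKM, with a log2 change of -0.43 ± 0.10 (SE, limma adjusted p = 0.0196). The call ended without DMSO replicate 3 (0.0727), CHIR99021 replicate 1 (0.0557) or CHIR99021 replicate 3 (0.0546).

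The paralogous kinase genes Akt1 and Akt2 had the highest mean levels of the 9 in DMSO, and Akt2 alone of the pair passed the test. Akt1 had 64.6, 70.7 and 72.3 FPKM in DMSO and 68.0, 73.1 and 66.0 in CHIR99021, so that the groups lay over the same range. Akt2 had 68.9, 58.9 and 68.0 FPKM in DMSO and 42.5, 38.5 and 41.4 in CHIR99021, with replicate 2 the lowest in both. Akt1 (chromosome 12, 112653821 to 112674276) had a log2 change of 0.00 ± 0.08 (SE), and its 95% interval of -0.19 to 0.19 excludes a fall of the size seen for Akt2. Akt2 (chromosome 7, 27591560 to 27639453) had a log2 change of -0.66 ± 0.09 (SE, limma adjusted p = 0.00274), and ran from -0.73 to -0.58 over the 13 settings, all past the threshold.

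**Figure D2:**
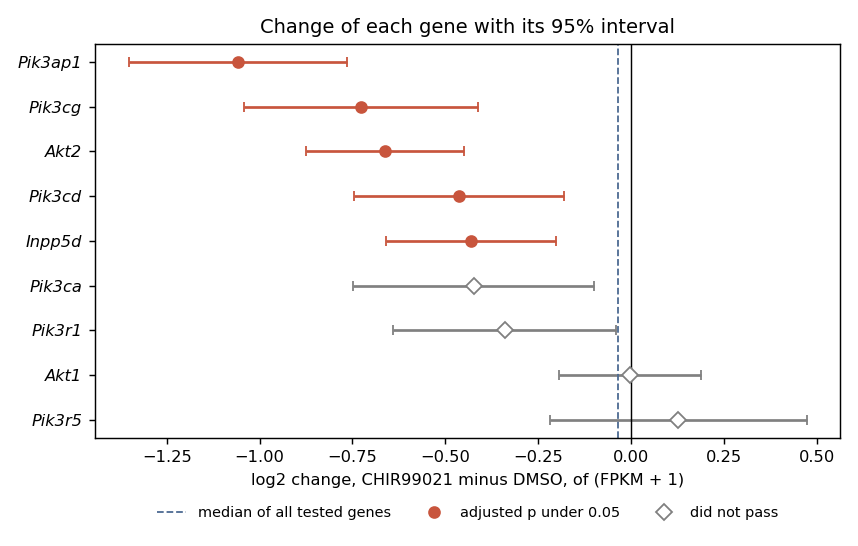
Log2 change of each gene (CHIR99021 minus DMSO, on the log2(FPKM + 1) scale, n = 3 per group) with its 95% interval from limma; filled circles passed at an adjusted p under 0.05, open diamonds did not, and the dashed line is the median of all tested genes at -0.04. Pik3ap1 has the largest fall at -1.06, and Akt1 lies at 0.00.

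Since FPKM is scaled for length, levels can be set against each other between genes. In DMSO the order by mean level was Akt1, Akt2, Pik3cd, Pik3ap1 and Inpp5d, with a mean of 45.1 FPKM or more each. Pik3r5, Pik3ca, Pik3r1 and Pik3cg followed, with a mean of 8.14 FPKM or less. The ranges over libraries overlapped between all neighbours in that order except Inpp5d and Pik3r5, which separate an abundant group from a scarce one. In CHIR99021 the abundant genes were the same, but Pik3ap1 was below Inpp5d in 3 of 3 libraries, whereas it was above Inpp5d in 3 of 3 DMSO libraries. Akt1 was above Akt2 in 3 of 3 CHIR99021 libraries and in 2 of 3 DMSO libraries. Neighbours that overlapped in CHIR99021 were Akt2 with Pik3cd and Pik3ca with Pik3r1.

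Whether paired genes moved by different amounts was asked with ratios of FPKM within a library, 4 of which are given, each compared between groups by a two-sided exact permutation test. With 3 libraries against 3 the smallest p that this test can give is 0.1, so none could pass. The Akt2 to Akt1 ratio was 1.07, 0.834 and 0.941 in DMSO and 0.626, 0.527 and 0.627 in CHIR99021, with no overlap (exact permutation p = 0.1, 0.167 after Benjamini-Hochberg adjustment over 5 ratios computed). The Pik3r5 to Pik3cg ratio was 1.51, 1.92 and 1.71 in DMSO and 3.41, 3.67 and 3.79 in CHIR99021. The groups did not overlap here either, and the p values were the same. The geometric mean of this ratio was 2.12-fold higher in CHIR99021. It leaves out Pik3r6, the other regulatory partner of the gamma subunit, which had means of 12.2 FPKM in DMSO and 8.04 in CHIR99021.

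The other ratios given overlapped between groups. Pik3cd exceeded Pik3ca 7.69, 7.68 and 7.09 times in DMSO and 7.85, 7.82 and 7.11 times in CHIR99021 (exact permutation p = 0.5, 0.6 adjusted). The mean log2 ratio differed by 0.02 between groups, with SDs of 0.07 and 0.08, and was higher in CHIR99021 for 3 of 3 replicate numbers. This difference was smaller than the spread between libraries, and its sign changed when DMSO replicate 3 or CHIR99021 replicate 1 or 2 was left out. The Pik3r1 to Pik3cd ratio was 0.113, 0.113 and 0.118 in DMSO and 0.131, 0.106 and 0.125 in CHIR99021 (exact permutation p = 0.6, 0.6 adjusted). Of the summed FPKM of the 4 class I catalytic genes, Pik3cd made up 81.1% ± 1.13 in DMSO and 82.7% ± 0.433 in CHIR99021, while the sum itself was 65.9 ± 8.01 and 46.5 ± 4.65 FPKM (SD, n = 3). The share of Pik3cg was 7.23% ± 0.883 in DMSO and 5.31% ± 0.144 in CHIR99021.

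**Figure D3:**
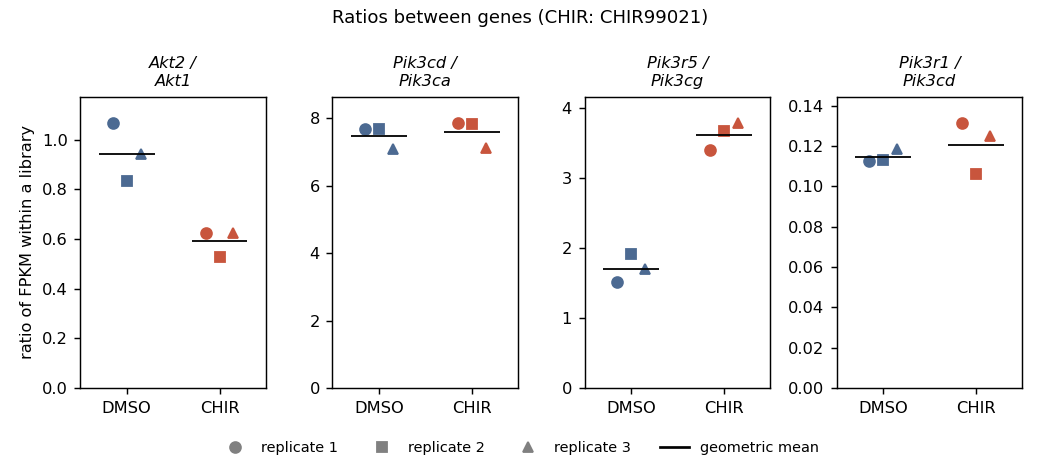
Ratio of FPKM within each library for 4 pairs of genes (linear axes from 0), with marker shapes for the replicate number and lines at the geometric mean of each group of 3. The groups are apart for Akt2 to Akt1 and Pik3r5 to Pik3cg, and overlap for Pik3cd to Pik3ca and Pik3r1 to Pik3cd.

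The rest of the pathway was read from 5 lists of other genes, of which 60 were tested: 24 fell (40.0%, against 13.3% of all tested genes) and 0 rose, with a median log2 change of -0.32. In the list of remaining class I subunits and their inhibitor, 1 of 3 tested genes fell (33.3%). This was Pik3ip1, a membrane protein that restrains PI3K activity, at 12.4, 7.77 and 10.7 FPKM in DMSO and 3.83, 3.30 and 3.86 in CHIR99021 (2.81-fold lower, limma adjusted p = 0.00252). Pik3r6, the other regulatory partner of the gamma subunit, had 12.2 ± 2.85 and 8.04 ± 0.927 FPKM (SD, n = 3, limma adjusted p = 0.0634, or 0.00649 with the replicate block).

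Of 9 tested phosphatases of phosphoinositides and AKT, 1 fell and 0 rose, with a median log2 change of -0.07. That share, 11.1%, was below the 13.3% of all tested genes called lower. The gene that fell was the 5-phosphatase gene Inpp5k, at 33.5, 27.0 and 32.4 FPKM in DMSO and 12.9, 11.2 and 12.4 in CHIR99021 (2.55-fold lower, limma adjusted p = 0.000547). The AKT phosphatase gene Phlpp1 had a log2 change of 0.01.

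The list of genes upstream of PI3K in B cells holds receptors, adaptors and kinases, and also the ligand gene Icosl. Of its 18 tested genes 14 fell (77.8%) and 0 rose, with a median log2 change of -0.72. Among its kinase and adaptor genes, Lyn was 2.45-fold lower, Grb2 1.92-fold, Syk 1.32-fold and Blnk 1.26-fold. The cytokine receptor genes Il4ra (2.37-fold lower) and Il21r (1.73-fold lower) and the insulin receptor substrate gene Irs2 (2.56-fold lower) also fell. So did inhibitory genes: Cd22 (2.57-fold lower) and Cd72 (2.53-fold lower) are inhibitory receptors, Ptpn6 (1.57-fold lower) encodes the phosphatase SHP-1, and Dok1 (1.63-fold) and Dok2 (3.93-fold) encode docking proteins that dampen signalling. Icosl, a ligand on B cells for a receptor of helper T cells, was 3.29-fold lower. The adjusted p of the 14 genes that fell ran from 0.000546 to 0.0323 in limma's test. The other tested genes, Cd81, Cbl, Fcgr2b and Dok3, had log2 changes from -0.31 to -0.07, and a further 6 of the list lay below the limit on level.

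Of 20 kinases and effectors that bind PIP3 or act with AKT, 7 fell (35.0%) and 0 rose, with a median log2 change of -0.33. Those that fell were Btk (1.27-fold), its substrate Plcg2 (1.39-fold), the PIP3-binding gene Plekha2 (1.37-fold), and the exchange factor and GTPase-activating genes Prex1 (1.62-fold), Vav1 (1.39-fold), Dock8 (1.49-fold) and Arap1 (1.85-fold). Their limma adjusted p ran from 0.000726 to 0.0311. The kinase gene Pdpk1, which phosphorylates AKT, had 12.1 ± 1.16 and 13.2 ± 1.03 FPKM (SD, n = 3, limma adjusted p = 0.481). The other 12 tested genes had log2 changes from -0.52 to 0.26 and did not pass. With the replicate block 10 fell and 1, Sgk1, rose (0.0447). Of 10 AKT substrates 1 fell (10.0%, against 13.3% of all tested genes), and the median log2 change was -0.21. The substrate gene that fell was Foxo4 (4.32 ± 0.637 to 2.30 ± 0.0998 FPKM, SD, n = 3, limma adjusted p = 0.0133). Neither gene of the kinases that CHIR99021 inhibits passed the test. Gsk3a had a log2 change of 0.06 ± 0.07 (SE, limma adjusted p = 0.643), with overlapping groups. Gsk3b had 4.49, 5.94 and 5.52 FPKM in DMSO and 4.21, 4.44 and 4.14 in CHIR99021, groups that did not overlap, with a log2 change of -0.26 ± 0.13 (SE, limma adjusted p = 0.209). Foxo1 had a log2 change of 0.09 ± 0.10 (SE).

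**Figure D4:**
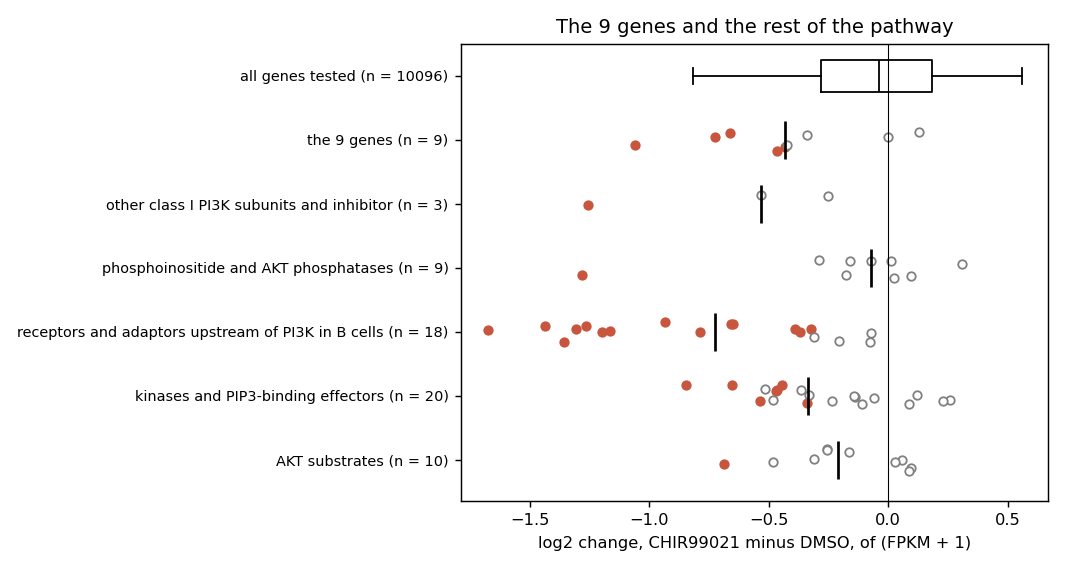
Log2 change (CHIR99021 minus DMSO, on the log2(FPKM + 1) scale) of the 9 genes and of the tested members of 5 pathway lists; filled points passed at an adjusted p under 0.05, open points did not, short lines are medians, and the box for all 10096 tested genes spans its quartiles with whiskers from the 5th to the 95th percentile. The list of upstream receptors and adaptors, which also holds Icosl, has the lowest median, at -0.72.

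For each of the 5 genes that fell, the tested genes most like it were taken by the correlation of log2(FPKM + 1) over the 6 libraries, which form 2 groups of 3, so that any gene with the same shift between groups scores highly. Pik3cg was most like Slc43a2 (Pearson r = 0.999), Prex1 (0.998) and Klf13 (0.997). Akt2 was most like Cnn3, Msn and Capg, each with r = 0.999. Pik3ap1 was most like Clk1 (0.997), Ssbp3 (0.996) and Ptpn6 (0.996), Pik3cd was most like Fnbp1 (0.997), Phc1 (0.996) and Zc3h12a (0.995), and Inpp5d was most like Irgq (0.996), Lrrfip1 (0.994) and Cobl (0.993). These values describe the libraries and carry no test.

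The libraries were checked against markers. All 6 B cell markers were expressed, and all 6 were lower in CHIR99021: their summed level was 2579 to 3433 FPKM in DMSO and 1281 to 1522 in CHIR99021. That list shares genes, Cd22 among them, with the upstream list above. Whether the falls of the 5 genes share a source with these marker changes was not tested, and in bulk RNA fewer cells of a type and less RNA per cell cannot be told apart. The 5 germinal centre markers, Bcl6 among them, summed to 128 to 134 FPKM in DMSO and 115 to 123 in CHIR99021, and Fas alone of them passed the test (lower). Bcl6 had means of 7.18 FPKM in DMSO and 4.55 in CHIR99021 (limma adjusted p = 0.160), and passed as lower with the replicate block (0.00307). Of the 5 plasma cell markers, Prdm1 (2.58-fold higher, limma adjusted p = 0.00347) and Irf4 (2.69-fold higher, 0.000431) rose, and Xbp1, Sdc1 and Jchain did not pass. Their sum was 489 to 766 FPKM in DMSO and 471 to 588 in CHIR99021, most of it Jchain (means of 452 and 289 FPKM, limma adjusted p = 0.1001, or 0.00134 with the replicate block). With the block Xbp1 passed too, as higher (0.0172). Of 8 T cell markers, which summed to 50.8 to 76.1 FPKM in DMSO and 39.1 to 55.0 in CHIR99021, 2 (Cd2 and Lck) reached a mean of 1 FPKM, and Cd3e was listed at 0 in every library. Of 8 myeloid markers, which summed to 60.2 to 74.1 and 62.8 to 72.7 FPKM, 3 (Lyz2, Itgam and Cybb) reached that mean, Itgam fell, and Cd14 was listed at 0 in every library. The sum of the 6 fibroblast markers, which feeder cells may carry, followed the replicate number. It was 277, 93.9 and 50.9 FPKM in DMSO replicates 1, 2 and 3 and 218, 82.3 and 44.7 in CHIR99021. Of these markers 3 (Col1a1, Col1a2 and Col3a1) reached a mean of 1 FPKM, and most of the sum was Col1a1. Without replicate 1 of both groups, an alternative chosen after seeing the data, the same 5 genes fell.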

How the data were processed

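Messenger RNA libraries (TruSeq Stranded mRNA kit, per the labels' protocols) from 3 DMSO and 3 CHIR99021 samples were compared. The submitters' processing notes name Cufflinks 2.2.1, TopHat2 2.1.1, cutadapt 1.12 and the build mm10. Neither the annotation nor the strand setting is stated. Per the file headers, the authors deposited FPKM per gene with lower and upper confidence limits, a unit that takes a test on the log scale. Summed FPKM per library was 527290 to 617449, and the limits lay a median of 12.5% to 15.4% from the value. Read as 2 Poisson SDs, they imply 94.4 (Pik3cg) to 2043 (Pik3cd) fragments per member and library. On that reading 71.8% to 72.9% of low values fell within 0.1 of a whole fragment. No exon of the 9 genes overlapped an exon of another gene in GENCODE M21.

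The test was limma 3.58.1 (R 4.3.3) on log2(FPKM + 1), with a variance trend, over the 10096 genes whose mean reached 1 FPKM; p-values are two-sided and Benjamini-Hochberg adjusted, with a threshold of 0.05. It was tested on simulated data with noise drawn independently for each library, which does not cover deviations shared by replicate number. The series calls the samples biological triplicates, but the labels name no separate animals, so p-values measure the spread between these libraries. Libraries with the same replicate number deviated together (r = 0.535, 0.490 and 0.517 across genes), so the number was also fitted as a block. The named genes are the 9 members, the list genes that passed and the genes of ratios and markers. They also include the 3 genes most like each member that passed. Genes picked beyond that rule, with their values in view, were Pik3cb, Pik3r2, Pik3r6, Phlpp1, Pdpk1, Sgk1, Gsk3a, Gsk3b and Foxo1. So were the other upstream genes that did not pass. The members, lists, ratios and motifs were chosen with earlier results of these data known. Some genes of these lists, and 1 ratio, are not reported here. Python 3.11.15 with scipy 1.17.1 and matplotlib 3.10.9 gave the ratios and figures.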

Additional observations from a re-analysis of the deposited data

How the results depend on the processing

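The falls of Pik3ap1, Pik3cg and Akt2 passed in all 13 alternatives. With the replicate block, 4321 genes were called in all (42.8% of those tested), and the counts became 7 for the 9 genes, 2 for class I subunits, 2 for phosphatases, 11 for kinases and effectors and 3 for AKT substrates, or 2 for the last with a pseudocount of 0.1. The block changed no other count by over 1.5 times. Leaving out each library in turn gave 1069 to 2038 calls over all genes, 3 to 6 among the 9 genes, and 1 to 2 each among class I subunits and phosphatases. The upstream list had 11 to 14 and the kinases and effectors 5 to 7, against 14 and 7 in the main test. With upper-quartile scaling the upstream list had 11 and the kinases and effectors 6. Without replicate 1 of both groups there were 1181 calls over all genes and 5 among the 9. The count of 3 among the 9 genes was without DMSO replicate 3, CHIR99021 replicate 1 or CHIR99021 replicate 3, and the cause was not tested.

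Of the calls over all genes 37.9% were higher with FPKM as deposited, 54.8% with upper-quartile scaling and 51.2% with quantile normalization; 4 of the 9 genes fell with each of these scalings. The change of Akt1 turned positive at 0.0380 with quantile and 0.0780 with upper-quartile scaling, and ran from -0.0499 to 0.0296 as each library was left out. That of Pik3r5 ran from -0.0093 (without DMSO replicate 1) to 0.211. The Pik3cd to Pik3ca difference was -0.0402 with ratios of FPKM + 1 and ran from -0.0193 to 0.0669 as libraries were left out. With the ratios paired by replicate number, as a block, the mean differences are the same by construction, at -0.67 for Akt2 to Akt1. The exact sign-flip permutation p was 0.25 there, the smallest that 3 pairs can give, so none could pass. Pik3cd to Pik3ca, with a difference of 0.02, had the same p. At the depth of Pik3cg the deposited limits lay 13.1% to 20.6% from the value, against 4.42% to 6.23% for Pik3cd.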
